A study of Homo sapiens with 12 samples.

Results

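Cells of HSC-3, an established human line from a squamous carcinoma of the tongue, were compared after 3 hours with cyclopiazonic acid (CPA, 25 µM) and after the same CPA exposure in the presence of synta-66, an inhibitor of ORAI calcium channels. The members are the 8 libraries that the labels give as CPA (4) and as CPA with synta-66 (4), out of 12 in all; the other 4 are untreated HSC-3 cells. The labels name no genotype change and no vehicle, no source used here gives the dose of synta-66, and cells given synta-66 without CPA are not analysed here, so what the inhibitor does in cells whose stores are full cannot be read from these libraries. The labels do not say whether the 4 libraries of each group were grown as separate cultures, so p-values measure only the spread between these samples, and that spread may be technical.

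Calcium enters many cells through a store-operated route. The SERCA pump fills the endoplasmic reticulum with calcium, and when the store runs empty STIM proteins in its membrane open ORAI channels in the plasma membrane. Calcium that comes in this way drives calcineurin and its NFAT targets, among other signals, while an empty store itself disturbs protein folding and starts the unfolded protein response, whose PERK arm acts through ATF4 and CHOP and whose ATF6 arm acts on chaperone genes. CPA blocks SERCA, so it empties the store and opens ORAI at the same time. The comparison with synta-66 asks which RNA levels differed when ORAI was inhibited in cells given CPA. Without cells given synta-66 alone, reduced calcium entry cannot be told apart from other effects of the compound.

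Each library is a table of raw read counts per annotated gene, counted by strand, and between 3.58% and 9.40% of uniquely aligned reads were assigned to a gene (2819486 to 5458858 reads per library). Many of the coding genes described here had fewer reads of their own than there were at features overlapping their exons on the other strand. A coding gene is therefore also given as read at the opposite feature: the annotated feature on the opposite strand whose exons share 30 bases or more with those of that coding gene and of no other, taking the one with the most reads (GRCh38 coordinates, GENCODE 44). This gave 3971 coding genes, 1867 of them at a noncoding feature and 2104 at a feature that is itself a coding gene. Reads at such a feature may come from its own transcript or from the coding gene across from it, and the counts do not tell them apart. Levels are CPM, counts scaled to library sizes after TMM scaling, and levels of different genes are not compared, since these counts are not per length. Changes are log2 fold changes with their standard error (SE, after ±) from the quasi-likelihood test of edgeR, adjusted by Benjamini and Hochberg's method over all 14911 features tested. A gene is said to rise or fall where the adjusted p was under 0.05 and the change at least 1.5-fold. Gene lists and their members were chosen with earlier results of these data known. Counts of called list members are therefore descriptions, and an excess over the share of all genes was not tested.

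Samples 1 and 4 of CPA with synta-66 stood apart. The 2 mitochondrial ribosomal RNAs, MT-RNR1 and MT-RNR2, made up 53.5% and 49.4% of their gene reads, against 3.12% and 4.35% in samples 2 and 3 and 0.165% to 9.43% in the CPA libraries. Of the untreated libraries, 1 also had a high share, 39.6%. The mean difference between the groups was 24.4 percentage points (exact permutation test, two-sided, p = 0.171, n = 4 against 4, where the smallest p possible is 0.0286). These libraries also had fewer reads left for other genes, with TMM-scaled library sizes of 2464935 and 2298294 reads against 3874973 to 4886251 reads in the CPA libraries. MT-RNR1 had a log2 fold change of 4.47 (adjusted p = 0.000659) with all libraries, and 0.11 (adjusted p = 0.962) without samples 1 and 4. Without CPA sample 1, the CPA library richest in these RNAs, it was 6.199. None of the 13 mitochondrial messenger RNAs, which were read by their own counts only, was called with all libraries. Without samples 1 and 4 MT-ND6 was called lower (-0.65, adjusted p = 0.00952), against 0.36 (adjusted p = 0.407) with all libraries, and the other 12 were not called. Results are given below with all 4 libraries and, where it matters, with samples 2 and 3 only.

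**Figure D1:**
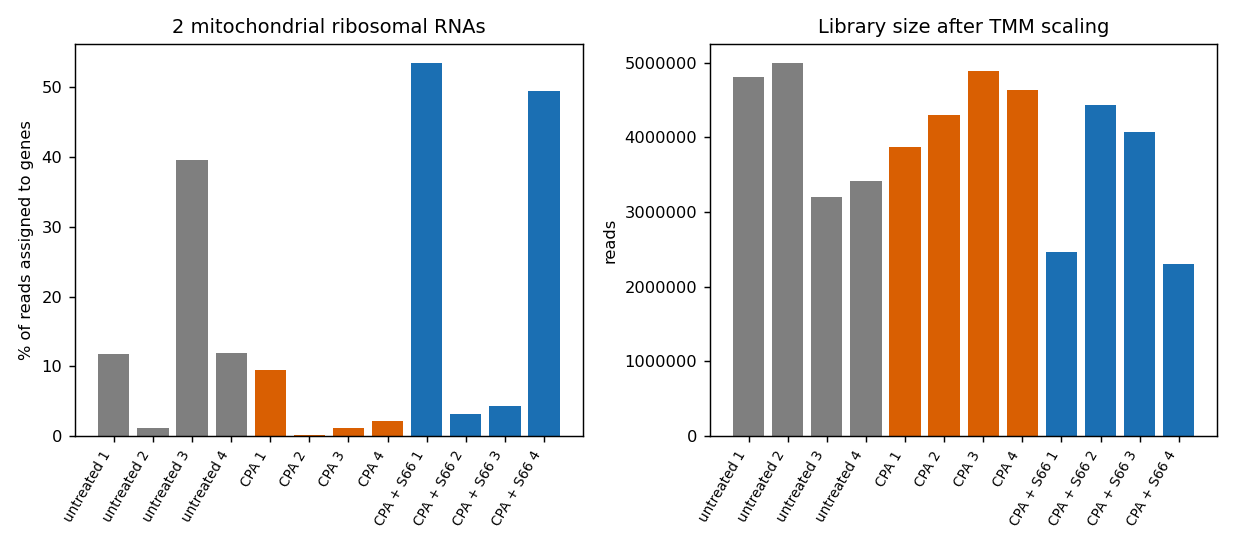
Left, share of the reads assigned to genes that fell on the 2 mitochondrial ribosomal RNAs (%, linear axis), and right, library size after TMM scaling (reads), 1 bar per library. Samples 1 and 4 of CPA + S66 (CPA with synta-66) have shares of 53.5% and 49.4% and the smallest scaled sizes of the 12 libraries.

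With the 1.5-fold minimum, more genes fell than rose when synta-66 was added to CPA. By adjusted p alone the balance was closer, with 515 features higher and 545 lower, and at opposite features it was even, with 260 genes higher and 259 lower. Over all 14911 features, 289 rose (1.94%) and 421 fell (2.82%), 710 in all (4.76%). Read at opposite features, 107 of 3971 coding genes rose (2.69%) and 174 fell (4.38%), 281 in all (7.08%), and at noncoding opposite features 54 of 1867 rose (2.89%) and 89 fell (4.77%), 143 in all (7.66%). By their own counts, 157 of 8937 coding genes rose (1.76%) and 243 fell (2.72%), 400 in all (4.48%). Large changes were mostly falls: at opposite features, 88 genes fell and 34 rose by at least 2-fold, and 24 fell and 8 rose by at least 4-fold. Over all 14911 features the excess was smaller, with 259 lower and 155 higher by at least 2-fold, and 100 and 54 by at least 4-fold. The 4 libraries with synta-66 did not overlap the 4 with CPA alone for 780 of the 3971 genes (19.6%), and for 12.3% of all features. The median log2 fold change was -0.0015 over the genes read at opposite features and -0.037 over all features. Without samples 1 and 4, 87 genes rose and 172 fell at opposite features, of which 69 and 141 had been called with all libraries, and all of the 107 rises and 174 falls kept their sign.

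**Figure D2:**
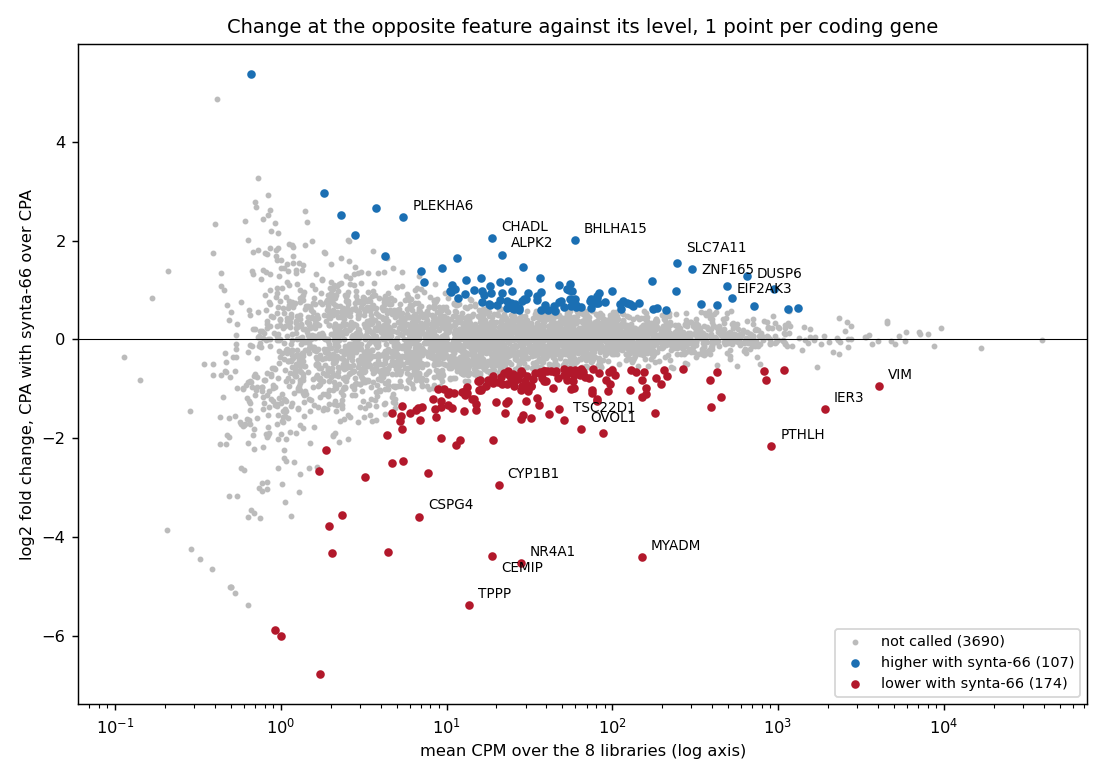
Log2 fold change, CPA with synta-66 over CPA, against the mean CPM over the 8 libraries (log axis), 1 point per coding gene read at its opposite feature. The 174 falls (red) reach larger sizes than the 107 rises (blue), with MYADM, NR4A1 and TPPP lowest among the labelled genes.

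Several of the largest falls were in genes that CPA had raised and that had about the untreated level, or less, with synta-66. Comparisons with untreated cells share libraries with this one and are given side by side only. PTHLH encodes parathyroid hormone-related protein, which squamous carcinomas secrete and which drives bone resorption. It was read at the noncoding ENSG00000257042 (chr12:27958517-27969813, overlap 353 bases). It had 1382, 1442, 1612 and 1510.5 CPM in CPA samples 1 to 4 and 312, 335, 340.0 and 338 CPM in CPA with synta-66 samples 1 to 4, with 359.9 to 407 CPM in untreated cells. Every library with synta-66 lay below every CPA library and below every untreated library. The log2 fold change was -2.17 ± 0.07 (adjusted p = 6.57e-25), and -2.17 without samples 1 and 4. Its own count fell too, from 21.6 to 11.8 CPM (-0.87, adjusted p = 0.012). Against untreated cells, PTHLH with CPA and synta-66 had a log2 fold change of -0.21 (adjusted p = 0.103).

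NR4A1, an orphan nuclear receptor that calcium and growth factor signals induce within the hour, was read at NR4A1AS (chr12:52058459-52059503, overlap 754 bases). It had 45.4, 64.4, 51.4 and 53.3 CPM in the CPA libraries and 2.03, 1.35, 2.46 and 3.92 CPM with synta-66, so the highest library with the inhibitor was far under the lowest without it. Untreated cells had 2.498 to 7.81 CPM, which the synta-66 libraries overlap. MYADM, a membrane protein of lipid rafts, was read at ENSG00000232220 (chr19:53874626-53876049, overlap 423 bases) with 255, 299, 315 and 283 CPM against 10.1, 9.01, 17.0 and 18.7 CPM and 11.4 to 15.4 CPM in untreated cells. The log2 fold changes were -4.53 ± 0.29 for NR4A1 (adjusted p = 1.37e-15) and -4.42 ± 0.15 for MYADM (adjusted p = 6.57e-25). Without samples 1 and 4 they were -4.84 and -4.51.

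IER3 is an early response gene that modulates survival. At IER3-AS1 (chr6:30742757-30743638) it had 2849.6, 2619.6, 2955 and 2744 CPM with CPA and 983, 1051, 1095 and 1059 CPM with synta-66, and every synta-66 library lay under the untreated range of 1319 to 1528 CPM (log2 fold change against untreated -0.44, adjusted p = 8.25e-06, under 1.5-fold). JUNB, a subunit of the AP-1 transcription factor, was read at HOOK2, itself a coding gene, at 166, 196, 213 and 185 CPM with CPA and 106, 128, 128 and 117 CPM with synta-66 (-0.66, adjusted p = 2.39e-05). It fell short of the 1.5-fold minimum when samples 1 and 4 and the mitochondrial genes were both left out (-0.58, adjusted p = 0.00216). TNFAIP3, which encodes the NF-kB inhibitor A20, had 109.7 to 118 CPM with CPA and 37.9 to 60.9 CPM with synta-66 at WAKMAR2 (-1.25, adjusted p = 1.3e-09). No other of the 4 NF-kB targets read at an opposite feature was called, and their median log2 fold change was 0.27. By own counts 1 of 22 tested NF-kB targets rose and none fell, beside 1.76% and 2.72% of all coding genes. Of the list of immediate early genes, 7 were read at an opposite feature: NR4A1, IER3 and JUNB fell, BTG1 rose and the other 3 were not called, with a median log2 fold change of -0.07. Of all genes so read 7.08% were called. BTG1, an antiproliferative gene, had 61.2, 46.3, 54.2 and 53.1 CPM with CPA and 108, 77.3, 108 and 84.4 CPM with synta-66 at BTG1-DT (0.81, adjusted p = 1.43e-05). By own counts none of 19 tested members of this list was called.

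**Figure D3:**
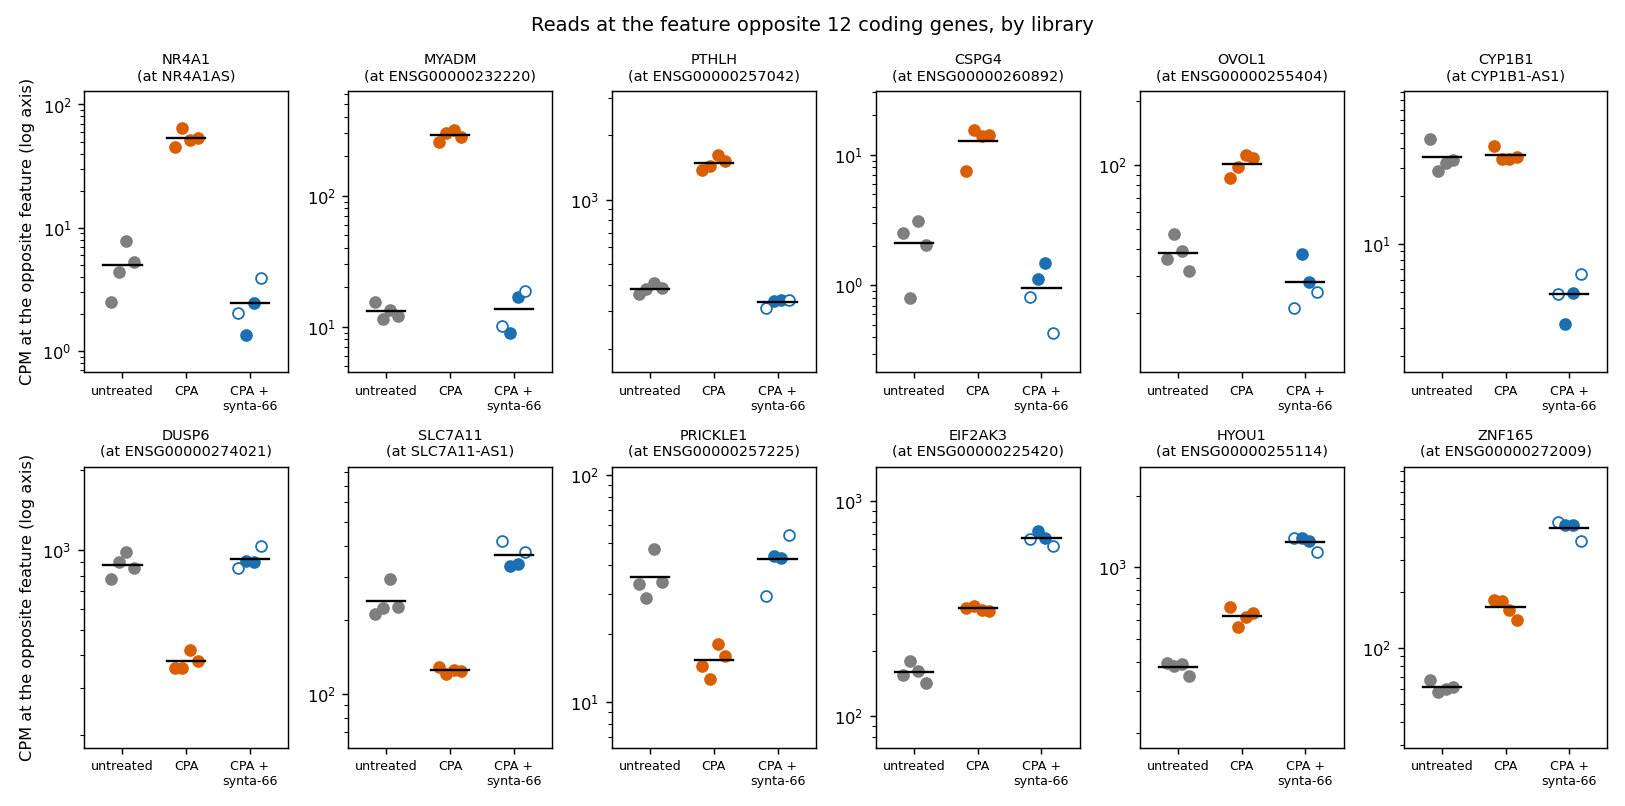
CPM at the opposite feature (log axis) for 12 coding genes, 1 point per library and a bar at the group mean, for untreated cells (grey), CPA (orange) and CPA with synta-66 (blue, open points for samples 1 and 4). The upper row falls with synta-66 and the lower row rises, and CPA with synta-66 does not overlap CPA in any of the 12 panels.

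Among the listed genes of adhesion, matrix and invasion, falls were seen and no rises, while the hyaluronan-binding HMMR, outside this list, rose (below). Of 46 genes on the list of integrins, proteases and invasion, 15 were read at an opposite feature, and 6 of these fell and none rose (of all genes so read 4.38% fell and 2.69% rose). Their median log2 fold change was -0.63 over the 15, beside -0.0015 over all genes so read, and -0.59 without samples 1 and 4, when 6 fell again. By own counts 4 of 33 fell and none rose, where 2.72% of all coding genes fell and 1.76% rose. The 6 were CEMIP, CSPG4, NEDD9, LOX, ITGA5 and CD44. Since the list was drawn up with earlier results of these data known, its share of falls is a description and not a test.

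CSPG4, the cell surface proteoglycan NG2, was read at ENSG00000260892 (chr15:75676227-75677162, overlap 563 bases). It had 7.48, 15.3, 13.9 and 14.03 CPM in the CPA libraries and 0.811, 1.13, 1.47 and 0.435 CPM with synta-66, without overlap, and untreated cells had 0.800 to 3.13 CPM. The log2 fold change was -3.59 ± 0.48 (adjusted p = 7.24e-07), and -3.30 without samples 1 and 4. Its own count moved the same way, from 3.61, 11.6, 12.1 and 6.48 CPM to 1.62, 2.70, 0.737 and 1.74 CPM (-2.28, adjusted p = 0.000346). These own counts in untreated cells averaged 9.88 CPM, above the level with synta-66.

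CEMIP, a protein of hyaluronan breakdown, was read at MESD (chr15:80946289-80989828), a coding gene whose exons it overlaps by 224 bases. It had 32.5, 39.5, 39.5 and 31.9 CPM with CPA and 0.811, 0.901, 1.97 and 3.48 CPM with synta-66 (-4.39 ± 0.33, adjusted p = 2.72e-13). The synta-66 libraries were at the level of untreated cells, 1.2001 to 2.5004 CPM. By its own count CEMIP had a log2 fold change of -0.36 (adjusted p = 0.414), and that count is in turn the reading of MESD. NEDD9, a scaffold of focal adhesions, had 54.7, 50.2, 50.8 and 41.4 CPM with CPA and 13.4, 30.2, 21.9 and 19.6 CPM with synta-66 at ENSG00000247925 (-1.18, adjusted p = 1.83e-05). Unlike CEMIP it stayed above untreated cells, which had 8.54 to 10.3 CPM (log2 fold change against untreated 1.18, adjusted p = 0.000164). LOX, the collagen cross-linking enzyme, was also still above untreated cells (9.58 to 11.1 CPM), at 14.9 to 19.9 CPM with synta-66 and 28.1 to 38.1 CPM with CPA at the coding gene SRFBP1 (-0.83, adjusted p = 0.00401).

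The fibronectin receptor subunit ITGA5 and the hyaluronan receptor CD44 fell by less. ITGA5 had 80.0, 85.1, 83.7 and 74.9 CPM and 52.3, 53.6, 44.7 and 55.7 CPM at GPR84-AS1 (-0.65, adjusted p = 0.000152), and CD44 had 1225, 1511, 1277 and 1269 CPM and 832, 860.0, 873 and 858 CPM at CD44-AS1 (-0.63, adjusted p = 4.75e-08). Both groups were apart in each case. The change in ITGA5 was under 1.5-fold without synta-66 sample 3 (-0.58, adjusted p = 0.00268) and that in CD44 without CPA sample 2 (-0.56, adjusted p = 5.09e-07).

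Of 16 targets of the serum response factor SRF and its cofactor MRTF, which respond to actin assembly, 4 fell and none rose (median -0.25; 4.38% of all genes read at opposite features fell). Besides MYADM and ITGA5 these were VCL and VIM. Vinculin (VCL), which links integrins to actin, had 29.2, 40.9, 34.4 and 28.1 CPM with CPA and 10.5, 10.6, 11.5 and 14.8 CPM with synta-66 at AP3M1, itself coding (-1.49, adjusted p = 2.78e-06), and was also under untreated cells at 15.6 to 28.8 CPM. Vimentin (VIM), the intermediate filament of mesenchymal cells, had 4659 to 5592 CPM with CPA and 2518 to 2907 CPM with synta-66 at VIM-AS1 (-0.95, adjusted p = 1.06e-12). TPPP, a tubulin-binding protein outside these lists, had the largest fall under the naming rule, from 21.9, 30.7, 30.9 and 22.7 CPM to 0.406, 0.225, 0.983 and 0.870 CPM at CEP72, a coding gene (-5.38 ± 0.49, adjusted p = 3.89e-11). The TPPP own count was not called (0.37, adjusted p = 0.134). LRP1, an endocytic receptor for proteases and matrix proteins, had 20.6, 18.4, 20.3 and 19.2 CPM and 6.09, 6.31, 4.42 and 1.74 CPM at LRP1-AS (-2.03, adjusted p = 7.47e-06).

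Other falls went below untreated cells, and in several CPA alone had not raised the gene. CYP1B1, a cytochrome P450 that metabolises oestrogens and polycyclic hydrocarbons, was read at CYP1B1-AS1 (chr2:38073447-38231651, overlap 678 bases). It had 28.6 to 45.8 CPM in untreated cells, 41.3, 34.4, 34.2 and 35.4 CPM with CPA and 4.87, 3.15, 4.91 and 6.53 CPM with synta-66. CPA alone gave no detectable change (log2 fold change 0.04, adjusted p = 0.959), and the fall with synta-66 was -2.95 ± 0.23 against CPA (adjusted p = 4.21e-13) and -2.90 against untreated cells (adjusted p = 7.06e-13). The other 3 aryl hydrocarbon receptor targets read at an opposite feature were not called.

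PAK6, a p21-activated kinase, had the same pattern at PAK6-AS1, with 10.2 to 17.0 CPM in untreated cells, 11.1 to 15.2 CPM with CPA and 2.03 to 5.66 CPM with synta-66 (-1.56, adjusted p = 0.000685). HMGA2, a chromatin protein of embryonic and mesenchymal cells, had 158, 355, 176 and 156 CPM with CPA and 115, 91.0, 107 and 114 CPM with synta-66 at HMGA2-AS1 (-0.99, adjusted p = 2.79e-05), where CPA sample 2 stood far above the other CPA libraries. S100A6, a small calcium-binding protein, had 39.5, 51.4, 58.3 and 58.9 CPM and 22.3, 19.6, 23.8 and 16.5 CPM at ENSG00000238279 (-1.33, adjusted p = 1.17e-07), an overlap of 37 bases. TSC22D1, a leucine zipper protein of the transforming growth factor beta response, had 74.3, 79.5, 75.3 and 78.1 CPM and 29.6, 23.7, 21.1 and 26.5 CPM at TSC22D1-AS1 (-1.62, adjusted p = 2.4e-11). Against untreated cells the log2 fold changes were -1.60 for PAK6, -1.28 for HMGA2, -0.89 for S100A6 and -0.87 for TSC22D1, with adjusted p between 2.35e-07 and 0.000786.

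OVOL1, a zinc finger factor of epithelial differentiation, and MAPK8IP1, a scaffold of the JNK kinase cascade, instead returned to about the untreated level. OVOL1 had 87.2, 98.1, 112 and 107 CPM with CPA, 21.1, 37.8, 28.0 and 25.2 CPM with synta-66 and 31.6 to 47.2 CPM in untreated cells (-1.82, adjusted p = 3.2e-12). MAPK8IP1 had 40.9 to 55.9 CPM, 11.5 to 21.9 CPM and 11.4 to 21.4 CPM in the same order (-1.60, adjusted p = 1.59e-07). CCNE2, the cyclin E2 of the G1 to S transition, was read at INTS8, a coding gene, at 1009 to 1144 CPM with CPA and 543 to 656 CPM with synta-66 (-0.83, adjusted p = 3.02e-10), near the 471 to 642 CPM of untreated cells.

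The remaining falls named by size were less abundant. RASSF4, a Ras association domain protein read at the coding gene DEPP1, had 12.9, 9.30, 7.78 and 6.04 CPM with CPA and 2.43, 0.225, 0.491 and 4.35 CPM with synta-66, and its log2 fold change of -2.46 became -4.58 without samples 1 and 4 and -3.31 without sample 4. TRIM7, a ubiquitin ligase, had 18.8, 15.3, 8.39 and 16.0 CPM and 4.06, 0.901, 2.95 and 7.83 CPM, and -2.004 became -2.95 without samples 1 and 4. In both genes sample 4 was the highest of the synta-66 libraries and sample 2 the lowest. NOL4L (-2.71), ZCCHC24 (-2.14), DDX20 at the coding gene INKA2 (-2.04) and CFAP20DC (-1.81) completed the group, with adjusted p between 1.19e-06 and 0.00527, and each remained called without samples 1 and 4.

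Among genes of the endoplasmic reticulum stress response, rises with the inhibitor outnumbered falls. Of 22 chaperone and degradation genes read at opposite features 3 rose (HYOU1, HSP90B1 and ERO1B) and none fell, and the median was 0.36, 0.37 without samples 1 and 4, when 3 rose and 1 fell. By own counts 9 of 41 rose and DERL3 fell, with a median of 0.63. Of 12 ATF4 and CHOP genes so read 4 rose (SLC7A11, EIF2AK3, CEBPB and MTHFD2) and none fell, with a median of 0.46, and 4 of 30 rose by own counts. Without samples 1 and 4, 4 of the 12 rose and 1 fell. Over all genes read at opposite features 2.69% rose and 4.38% fell, and by own counts 1.76% and 2.72%. These lists were likewise chosen with earlier results of these data known.

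HYOU1, an HSP70-like chaperone of the endoplasmic reticulum, was read at ENSG00000255114 (chr11:119044188-119045493, overlap 667 bases). It had 347 to 395 CPM in untreated cells, 676, 562, 615 and 638 CPM with CPA and 1319, 1323, 1282 and 1157 CPM with synta-66, so that each step was larger than the spread within any group (1.03 ± 0.07 against CPA, adjusted p = 4.62e-14). EIF2AK3 encodes PERK, the kinase that starts the ATF4 arm. At ENSG00000225420 (chr2:88538720-88575610, overlap 781 bases) it rose in the same steps, with 143 to 181 CPM untreated, 319, 327, 312 and 309 CPM with CPA and 664, 722, 675 and 620.0 CPM with synta-66 (1.08 ± 0.08, adjusted p = 9.67e-14). BHLHA15, known as MIST1, a transcription factor of secretory cells, was read at the coding gene TECPR1 (chr7:98214624-98252232, overlap 834 bases). It had 4.79 to 7.60 CPM, 31.2, 18.4, 25.4 and 19.4 CPM and 100.2, 114, 83.3 and 81.8 CPM in the same order (2.01 ± 0.17, adjusted p = 2.13e-12). In none of these 3 genes did any groups overlap. Without samples 1 and 4 the changes against CPA were 1.03, 1.11 and 2.03.

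HSP90B1 encodes GRP94, an abundant chaperone of the endoplasmic reticulum. At the coding gene UQCC6 it had 86.7, 112, 72.0 and 71.4 CPM with CPA and 156, 169.8, 145 and 117 CPM with synta-66, above 18.8 to 23.1 CPM in untreated cells (0.78, adjusted p = 2.6e-05), and its own count also rose (0.87, adjusted p = 0.000144). HSPA5 (BiP, the main chaperone and stress sensor) had no opposite feature, and its own count was 17.8, 9.07, 4.30 and 8.20 CPM with CPA and 30.4, 27.5, 31.4 and 47.0 CPM with synta-66 (1.80, adjusted p = 1.45e-05). CALR (calreticulin, which binds calcium and glycoproteins) rose by its own count, with 18.4 to 37.2 CPM with CPA and 50.9 to 59.6 CPM with synta-66 (0.84, adjusted p = 0.00147), and at ENSG00000267458 it went from a mean of 1972 to 2669 CPM, a change of 0.44 that is under 1.5-fold (adjusted p = 1.98e-05). PDIA4, a disulphide isomerase, rose by its own count, with 3.02 to 5.68 CPM with CPA and 13.8 to 23.8 CPM with synta-66 (2.08, adjusted p = 9.12e-05). DNAJB11, a partner of BiP, rose, with 6.04 to 10.0 CPM with CPA and 15.01 to 21.4 CPM with synta-66 (1.201, adjusted p = 0.00195). The own count of HYOU1 was not called without samples 1 and 4 (1.57, adjusted p = 0.223) or without sample 1 (1.78, adjusted p = 0.0728). ERO1B, an oxidase for protein folding read at the small RNA gene RNU2-70P, had only 0.205 to 0.698 CPM and 1.31 to 4.67 CPM and was not called without samples 1 and 4 (adjusted p = 0.0605), nor without any single CPA or synta-66 library other than synta-66 sample 4 (adjusted p 0.0528 to 0.14).

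The element known to tie such chaperone genes to ATF6 is the endoplasmic reticulum stress element, ERSE: the letters CCAAT and, after 9 bases of any kind, CCACG. It was searched on both strands in the 250 bases before the start of each gene in the RefSeq promoter table (GRCh38.p14). It was found in 22 of 27305 promoters (0.0806%), in 7 of 3223 genes read at an opposite feature (0.217%), in 2 of the 92 that rose and had a promoter entry (2.17%) and in 0 of the 142 that fell. The 2 were HSP90B1 and ERO1B. As given above, ERO1B had few reads and was not called without samples 1 and 4 (adjusted p = 0.0605), so the share among the rises rests on very few genes. The promoters are shown for the 4 genes that hold the element and rose by at least 1 of the 2 readings, with the matches in capitals (on the other strand CGTGG, 9 bases and ATTGG).
HSPA5 (chr9:125241344-125241593, minus strand): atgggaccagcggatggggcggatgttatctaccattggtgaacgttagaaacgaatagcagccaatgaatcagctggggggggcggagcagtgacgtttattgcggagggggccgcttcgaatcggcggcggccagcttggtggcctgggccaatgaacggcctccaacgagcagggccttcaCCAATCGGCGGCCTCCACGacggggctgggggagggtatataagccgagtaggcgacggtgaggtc
HSP90B1 (chr12:103930160-103930409, plus strand): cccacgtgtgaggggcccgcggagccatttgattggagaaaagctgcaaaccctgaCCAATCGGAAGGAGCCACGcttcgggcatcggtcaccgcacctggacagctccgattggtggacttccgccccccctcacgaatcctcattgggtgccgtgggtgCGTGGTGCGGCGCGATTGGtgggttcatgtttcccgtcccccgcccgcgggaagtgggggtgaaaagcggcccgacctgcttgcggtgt
CALR (chr19:12938359-12938608, plus strand): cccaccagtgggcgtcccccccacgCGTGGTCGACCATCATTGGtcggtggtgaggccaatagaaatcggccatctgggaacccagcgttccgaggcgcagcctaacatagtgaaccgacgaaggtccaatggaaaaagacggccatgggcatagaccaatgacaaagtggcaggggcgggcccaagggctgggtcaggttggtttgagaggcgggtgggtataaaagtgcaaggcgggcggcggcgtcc
ERO1B (chr1:236281959-236282208, minus strand): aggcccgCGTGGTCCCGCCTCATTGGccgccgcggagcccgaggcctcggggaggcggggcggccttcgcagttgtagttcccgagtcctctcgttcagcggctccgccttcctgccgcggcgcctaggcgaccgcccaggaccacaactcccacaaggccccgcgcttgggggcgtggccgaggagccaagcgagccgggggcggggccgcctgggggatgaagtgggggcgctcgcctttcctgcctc
Reading each 5′ to 3′ up to the base before the start, the first base of the match lay 66 bases before the start in HSPA5, 225 in CALR and 243 in ERO1B, and HSP90B1 had matches at 194 and 89. Of the 22 genes, 13 were tested by their own counts, and 3 rose (HSPA5, HSP90B1 and CALR) and none fell. Of all coding genes tested by own counts 1.76% rose and 2.72% fell. SERP1, which stabilises membrane proteins under stress, went from a mean of 127.8 to 188 CPM by its own count, a change of 0.56 that is under 1.5-fold (adjusted p = 4.51e-05). Others with the element, such as XBP1 (own count -0.51, adjusted p = 0.422), CRELD2 (-0.014, adjusted p = 0.985) and FICD (0.028, adjusted p = 0.949), were not called. ERO1B, which rose at its opposite feature, had an own count of 2.66 CPM on average with CPA and 0.671 CPM with synta-66 (-2.02, adjusted p = 0.147).

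ERSE was 1 of 8 motifs searched in the same way. The ATF4 and C/EBP motif (TGATG followed by CAA) was in 0.82% of all promoters, in 0.59% of those of genes read at an opposite feature, in 3 of the 92 rises (3.26%) and in 0 of the 142 falls. The cyclic AMP response element, CRE (TGACG followed by TCA), was in 1.77% and 2.98% in this order, in 0 rises and in 2.82% of the falls. AP-1 (TGANTCA) was in 6.6% and 3.88%, in 3.26% of the rises and in 2.11% of the falls. The aryl hydrocarbon receptor motif XRE (GCGTG) was in 31.9% and 44.4%, in 45.7% of the rises and in 38.7% of the falls. The EGR motif (GCGTG followed by GGCG, which contains the XRE letters) was in 0.71% and 1.12%, in 0 rises and in 1.41% of the falls. The E-box (CACGTG) was in 6.49% and 9.09%, in 7.61% of the rises and in 5.63% of the falls. The CArG box, the motif of SRF, was in 1.14% and 1.21%, in 0 rises and in 0.704% of the falls. A match is a description of the letters and not a site shown to be bound.

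Some features lie opposite exons of several coding genes and were left out of the reading by 1 gene. Such features were looked at after their values had been seen: 28 were called, averaged 20 CPM or more and had groups apart, 14 higher and 14 lower. Over all features, whatever their level, 4.76% were called. The share under the same conditions is not given here, so the 28 cannot be set against a background. The largest rise was at MARS1 (chr12:57475445-57517569), the methionyl-tRNA synthetase gene, which lies opposite 519 bases of exons of ARHGAP9 and 355 of DDIT3. DDIT3 encodes CHOP, the transcription factor that ATF4 induces when stress persists. This feature had 208 to 226 CPM in untreated cells, 795, 676, 699 and 689 CPM with CPA and 2517, 2767, 2625 and 2385 CPM with synta-66 (1.85 ± 0.07, adjusted p = 1.65e-23), and 1.88 without samples 1 and 4. Whether the reads came from MARS1, DDIT3 or ARHGAP9 cannot be told apart. The own count of DDIT3 was 112, 137, 126 and 125 CPM and 178, 139, 162 and 141 CPM (0.31, adjusted p = 0.0903). Of the other aminoacyl-tRNA synthetases, which ATF4 also induces, none of the 8 read at an opposite feature was called (median 0.42), but of 17 tested by own counts those of MARS1 itself, SARS1 (1.53, adjusted p = 0.00186) and WARS1 (1.19, adjusted p = 0.000612) rose. That of WARS1 was not called without samples 1 and 4 (0.87, adjusted p = 0.0761). By own counts 1.76% of all coding genes tested rose.

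The largest fall among these features was at ALDH1A3-AS1 (chr15:100892343-100919391), opposite 1715 bases of ALDH1A3, a retinaldehyde dehydrogenase, and 65 of LRRK1. It had 1332 to 1519 CPM in untreated cells, 2334, 2192, 2283 and 2509 CPM with CPA and 502, 651, 621 and 547 CPM with synta-66 (-2.003 ± 0.08, adjusted p = 9.78e-24). The libraries with synta-66 were under every untreated library (-1.30 against untreated, adjusted p = 1.8e-17). MSC-AS1, opposite exons of the irritant receptor channel TRPA1 and of the transcription factor MSC, had 16.2 to 22.2 CPM, 95.2, 76.0, 91.5 and 76.8 CPM and 30.02, 36.9, 36.9 and 25.2 CPM in the same order (-1.38, adjusted p = 4.53e-09). It stayed above untreated cells (0.69, adjusted p = 0.00503). ARSG, opposite exons of the autophagy gene WIPI1 and of SLC16A6, rose, with 121 to 137 CPM with CPA and 263 to 276 CPM with synta-66 (1.08, adjusted p = 7.47e-12). WIPI1 itself, read at ENSG00000267009, had a like change (1.01, adjusted p = 0.017) that was not called without samples 1 and 4 (adjusted p = 0.0625), without CPA sample 1, 2 or 3 or without synta-66 sample 3 (adjusted p 0.0525 to 0.0867). HRG-AS1, opposite exons of DNAJB11 among 4 genes, rose, with 71.2 to 83.5 CPM with CPA and 123 to 164 CPM with synta-66 (0.86, adjusted p = 2.57e-06).

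SLC7A11, the cystine importer that ATF4 and NRF2 both induce, rose from 129, 121, 126 and 124 CPM with CPA to 419, 332, 338 and 377 CPM with synta-66 at SLC7A11-AS1 (chr4:138057464-138178177, overlap 865 bases). Untreated cells had 212 to 293 CPM, so CPA had lowered it (-0.93, adjusted p = 1.72e-09) and synta-66 took it past the untreated level (0.62, adjusted p = 1.03e-05). MTHFD2, a mitochondrial folate enzyme, had 904, 859.8, 879 and 977 CPM with CPA, level with untreated cells, and 1368, 1434, 1466 and 1298 CPM with synta-66 (0.62, adjusted p = 1.2e-08) at a coding feature, ENSG00000264324. CEBPB, a bZIP factor of stress and inflammation, had 44.6, 34.4, 37.2 and 44.5 CPM and 49.5, 74.6, 88.9 and 69.6 CPM at CEBPB-AS1 (0.82, adjusted p = 0.000863), and its own count rose as well (1.44, adjusted p = 0.000138). SHMT2, another mitochondrial folate enzyme, rose by its own count from 6.19, 6.28, 3.48 and 6.48 CPM to 13.4, 20.5, 20.1 and 15.7 CPM (1.65, adjusted p = 0.000307), and the same reads are the opposite reading of NDUFA4L2, whose own count also rose (1.03, adjusted p = 0.000241).

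Several other rises were in genes that CPA had lowered. DUSP6, the phosphatase that switches off the kinase ERK, had 779 to 984 CPM in untreated cells, 359, 358, 421 and 382 CPM with CPA and 853, 911, 902 and 1033 CPM with synta-66 (1.28 ± 0.08, adjusted p = 5.02e-16). PRICKLE1, of planar cell polarity, had 28.6 to 47.2 CPM, 14.5, 12.6, 18.0 and 16.0 CPM and 29.2, 43.7, 43.0 and 54.4 CPM (1.48, adjusted p = 2.57e-07), and the kinase ALPK2 had 22.3 to 42.5 CPM, 7.23, 10.7, 9.82 and 11.9 CPM and 28.0, 29.5, 31.7 and 43.1 CPM (1.72, adjusted p = 1.68e-07). In all 3 the synta-66 libraries overlapped the untreated ones and no CPA library did. IL20RB, a subunit of receptors for interleukins of the IL-20 family, had 8.37 to 14.7 CPM with CPA and 27.0 to 30.4 CPM with synta-66 (1.17, adjusted p = 6.59e-05), and the chemoattractant IL16, at the coding gene STARD5, 3.87 to 7.91 CPM and 8.33 to 19.1 CPM (1.44, adjusted p = 0.00113), and CPA had lowered both. BCL2L1, which encodes the survival protein BCL-XL and was not called between CPA and untreated cells, had 494, 519, 581 and 596 CPM with CPA and 804, 906, 877 and 915 CPM with synta-66 at ABALON (0.68, adjusted p = 8.56e-09).

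In other rises the synta-66 libraries lay above the untreated ones as well. ZNF165, a zinc finger protein, had 57.8 to 67.0 CPM in untreated cells, 181, 180.0, 159 and 141 CPM with CPA and 477, 459.5, 460.4 and 379.8 CPM with synta-66 at ENSG00000272009 (chr6:28078792-28081130; 1.43 ± 0.09, adjusted p = 2.79e-15). Its 3 groups did not overlap. PLEKHA6, a pleckstrin homology domain protein, had 0.586 to 1.25 CPM, 2.58, 1.63, 1.23 and 1.295 CPM and 7.30, 10.1, 13.3 and 6.53 CPM (2.48, adjusted p = 0.000358). CHADL, of the small leucine-rich repeat family, was read at the coding gene L3MBTL2 with 10.3, 4.65, 6.34 and 7.55 CPM and 41.4, 27.0, 23.6 and 29.2 CPM (2.06, adjusted p = 4.23e-07). PHLDA1 had 1066, 949, 1059.7 and 1074 CPM and 1394, 1699, 1707 and 1647 CPM (0.64, adjusted p = 1.45e-08) and rose by its own count too (0.74, adjusted p = 0.00137). The rises of FLRT2 (1.17), MORF4L2 (1.02) and PTPN14 (0.81) were not called without samples 1 and 4, with adjusted p of 0.237, 0.0586 and 0.147. FLRT2 was not called without CPA sample 1, 2 or 3 or synta-66 sample 1 or 2 either (adjusted p 0.0668 to 0.136). The same held for MORF4L2 without CPA sample 1, 3 or 4 or synta-66 sample 2 (0.0511 to 0.0625), and for PTPN14 without CPA sample 1, 3 or 4 or synta-66 sample 4 (0.0544 to 0.0829).

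Most of the called genes at higher levels were outside the naming rule. Of 102 genes called at an opposite feature that averaged 50 CPM or more and had the groups apart, 45 rose and 57 fell, and 74 of them (30 and 44) are not named by the rule. At opposite features 7.08% of genes of any level were called, and the share among those of 50 CPM or more is not given here. The 8 largest falls and 8 largest rises of these 74 were chosen after their values had been seen, and all 16 were called in each fit that left out 1 library and in the fit without samples 1 and 4. Among the falls, SYNC (syncoilin, an intermediate filament protein) had 144, 116, 142 and 156 CPM with CPA and 31.2, 29.5, 53.1 and 34.8 CPM with synta-66 (-1.89, adjusted p = 1.58e-13). The scaffold AHNAK2 had 579.9, 767, 565 and 591 CPM and 272, 299, 253 and 291 CPM (-1.17, adjusted p = 4.97e-12). In both the feature, RBBP4 and PLD4 in this order, is itself a coding gene. HSPG2 (the basement membrane proteoglycan perlecan, -1.20), FAT2 (a protocadherin of squamous epithelium, -1.11), TESK1 (a kinase of cofilin, -1.08), TRIM47 (a ubiquitin ligase, -1.48) and SLC25A29 (a mitochondrial carrier of basic amino acids, -1.17) fell too, with adjusted p between 1.02e-14 and 1.19e-07.

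Among the rises, CDC42EP3, an effector of the GTPase CDC42, had 61.9, 65.3, 67.5 and 74.7 CPM with CPA and 123, 136, 147 and 125 CPM with synta-66 at CDC42EP3-AS1 (0.98, adjusted p = 1.21e-08). BORA, an activator of the mitotic kinase Aurora A, had 179, 149, 163 and 163 CPM and 336, 302, 327 and 330.2 CPM at the coding gene DIS3 (0.98, adjusted p = 1.14e-11). MIS12, a kinetochore protein, was read at DERL2, with 111, 103, 113 and 96.7 CPM and 224, 259, 233 and 249.8 CPM (1.19, adjusted p = 1.93e-12). DERL2 is itself a gene of endoplasmic reticulum degradation, and the same count is 1 of the 9 rises by own counts on the list of chaperone and degradation genes. TMEM50B rose (1.00, adjusted p = 9.16e-06) at IFNGR2, while IFNGR2, a subunit of the interferon gamma receptor, fell at TMEM50B (-0.66, adjusted p = 4.3e-06). The exons of the pair overlap by 380 bases. GTPBP1 (1.13), NAV2 (0.97), ZNF550 (1.03) and ZNF140 (0.95) rose with adjusted p between 8.9e-08 and 3.62e-06.

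Features with no coding exon opposite them are given by their own counts. As with GAPDH below, a small own count need not show the level of a gene, so the changes here are those of the own counts. AREG, the EGF receptor ligand amphiregulin, rose from 5.94, 3.49, 1.64 and 5.40 CPM to 19.5, 9.91, 22.4 and 24.8 CPM (2.21, adjusted p = 6.25e-05). RET, the receptor tyrosine kinase for neurotrophic factors of the GDNF family, rose from 1.81, 1.63, 1.43 and 3.89 CPM to 7.71, 18.0, 10.6 and 10.4 CPM (2.41, adjusted p = 9.41e-05), and TNFSF8, the ligand of CD30, from 0.516, 0.698, 1.23 and 0.648 CPM to 10.95, 2.48, 10.8 and 13.1 CPM (3.50, adjusted p = 3.36e-05). In all 3 the CPA libraries had at most 5.94 CPM. KRT15, a keratin of basal epithelium, fell from 10.8, 6.98, 10.6 and 8.63 CPM to 0.406, 0.901, 1.72 and 0.870 CPM (-3.13, adjusted p = 1.24e-05). The noncoding GPC1-AS1 fell from 10.8, 25.8, 19.9 and 18.3 CPM to 3.25, 2.48, 1.47 and 4.35 CPM (-2.77, adjusted p = 3.98e-08). Each of these 5 stayed called without samples 1 and 4.

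The machinery of store-operated entry was itself hardly readable or not called. Of 13 genes of store-operated calcium entry 3 were read at an opposite feature and 7 tested by own counts, and none was called by either. SARAF, an inhibitor of the channel complex, had 219, 172, 201 and 206 CPM with CPA and 163, 218, 204 and 201 CPM with synta-66 (-0.02 ± 0.10, adjusted p = 0.954), and STIM1 3.61, 5.35, 5.32 and 4.53 CPM and 4.06, 2.70, 7.12 and 7.40 CPM (0.16 ± 0.45, adjusted p = 0.904). ORAI1, the target channel, had an own count of 1.29, 0.465, 0 and 2.16 CPM and 1.62, 3.60, 3.93 and 4.35 CPM (1.77 ± 0.76, adjusted p = 0.177), so no difference was detectable at this depth. The SERCA pump gene ATP2A2 had 16.0, 15.3, 7.78 and 7.12 CPM and 10.5, 13.7, 16.5 and 16.1 CPM of its own (0.31 ± 0.30, adjusted p = 0.658). Of 8 genes of calcineurin, NFAT and their targets read at an opposite feature, PPP3CC fell and no other was called (median -0.02). Of all genes so read 7.08% were called and 4.38% fell. By own counts 1 of 16 tested members of this list rose and none fell, beside 1.76% and 2.72% of all coding genes. PPP3CC, a catalytic subunit of calcineurin, had 28.1, 36.7, 28.0 and 27.4 CPM with CPA and 15.01, 13.97, 18.4 and 17.4 CPM with synta-66 at ENSG00000251034 (-0.89, adjusted p = 0.00271), against 13.8 to 20.9 CPM in untreated cells. RCAN1 and NFATC1 had under 1 CPM of their own in every CPA and synta-66 library and were not tested. GAPDH, a glycolytic enzyme, showed no detectable difference at its opposite feature, with 35402 to 41824 CPM and 37276 to 40388 CPM (-0.02 ± 0.07, adjusted p = 0.949).

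Several other groups showed no calls in this comparison by the opposite reading. None was called of 10 cholesterol synthesis genes (median -0.22), 11 clock genes (-0.15), 18 genes of secretory transport and glycosylation (0.15), 6 heat shock genes (0.23), 7 of the EGF receptor family and its ligands (0.01) or 11 of the interferon response (-0.0022). Own counts of the interferon list fell for 3 of 23 tested, IFITM3 and PARP12 among them, and for 2.72% of all coding genes. IFITM3 was not called without CPA sample 1 or 4, synta-66 sample 1 or 3 (adjusted p 0.0581 to 0.14) or samples 1 and 4 (0.0608). Cytokines and pain mediators were split, with IL16 and PTX3 higher and LIF and IL24 lower of 10 read (median 0.25). Of all genes read at opposite features 2.69% rose and 4.38% fell. By own counts 1 of 22 tested members of this list rose and none fell, beside 1.76% and 2.72% of all coding genes. PTX3, a soluble pattern receptor, had 45.7, 49.3, 54.0 and 51.8 CPM and 86.4, 79.1, 83.5 and 70.1 CPM at the coding gene VEPH1 (0.67, adjusted p = 0.000533). LIF had 12.4, 12.1, 20.3 and 10.8 CPM and 9.33, 5.63, 5.16 and 6.09 CPM at LIF-AS2 (-1.11, adjusted p = 0.0367), and was not called without CPA sample 2 (adjusted p = 0.0511), CPA sample 3 (0.212) or synta-66 samples 2 (0.0993), 3 (0.119) or 4 (0.075).

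**Figure D4:**
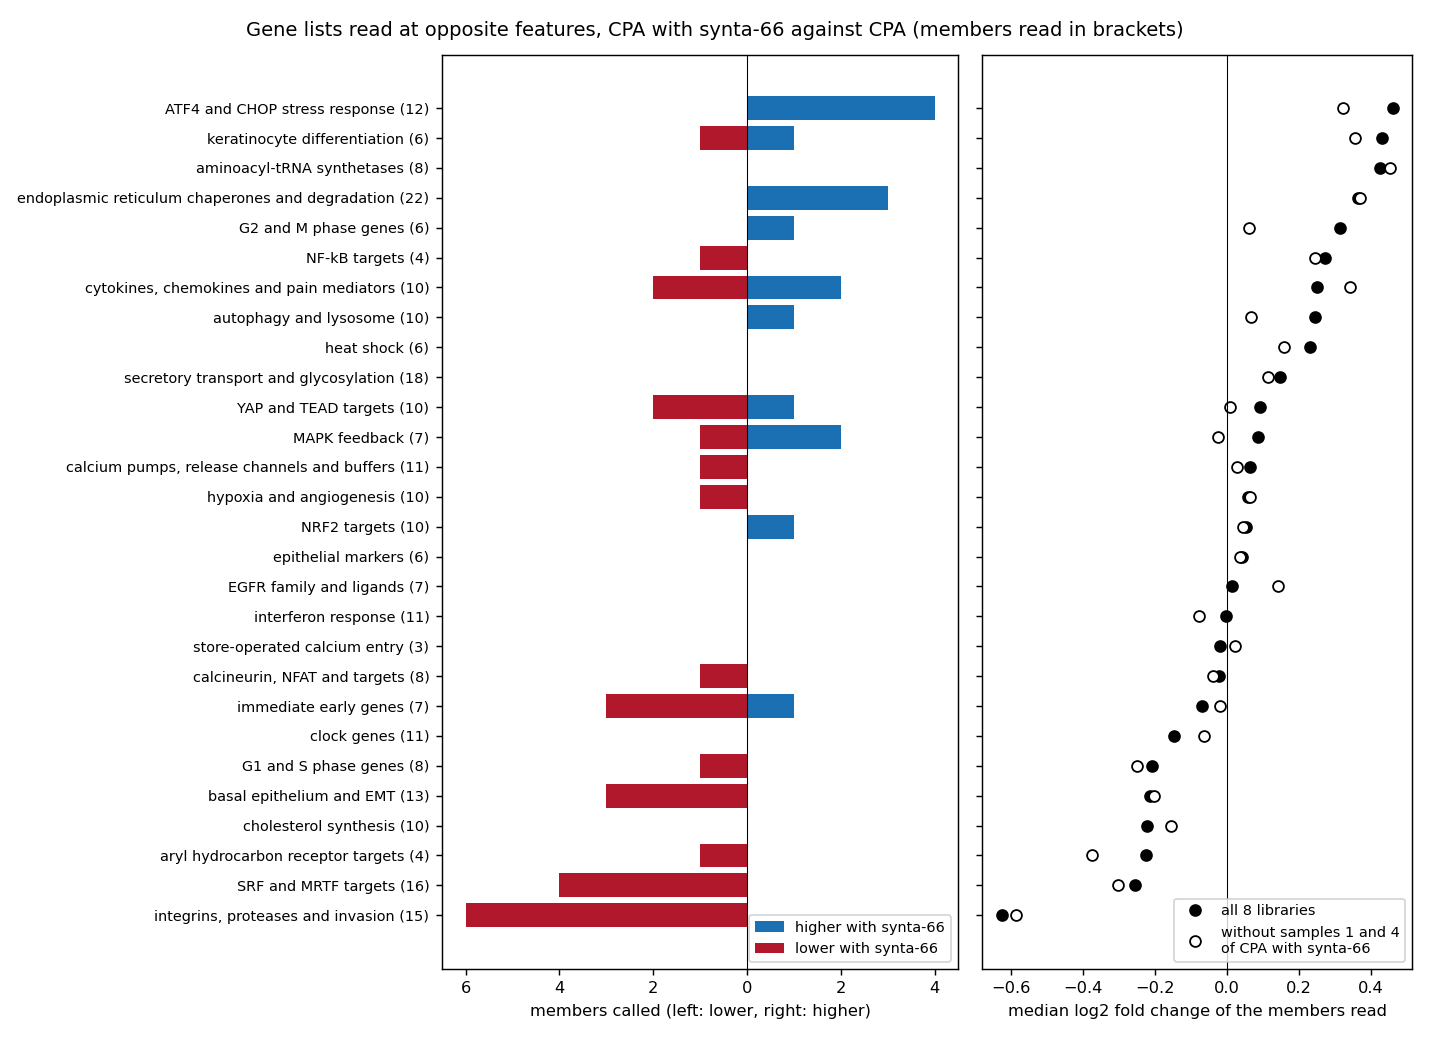
Gene lists, each with at least 3 members read at an opposite feature, members read in brackets. Left, members called lower (red) and higher (blue) with synta-66; right, median log2 fold change of the members read, with all 8 libraries (filled) and without samples 1 and 4 of CPA with synta-66 (open). Integrins, proteases and invasion has the lowest median, -0.63, with 6 falls, and ATF4 and CHOP stress response the highest, 0.46, with 4 rises.

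Reads at the KRT8 feature were abundant, and by own counts most markers of other cell types were at or near 0. The summed own counts of 18 epithelial markers were 7185 to 8237 CPM with CPA and 8077 to 8785 CPM with synta-66, nearly all of it at KRT8 (7015 to 8102 and 7901 to 8634 CPM), a feature opposite KRT18. None of the 18 was called by its own count, nor were the 6 read at an opposite feature. By own counts KRT5 and KRT14, which define basal keratinocytes, had 20.3 to 28.6 and 4.91 to 10.3 CPM with CPA. With synta-66 they had 12.6 to 19.5 and 3.38 to 4.67 CPM. GAPDH had 14.7 to 30.2 CPM of its own with CPA, far under its opposite reading given above. A small own count therefore does not show a low level of the gene. The summed own counts were at most 38.4 CPM for 13 fibroblast markers, 7.71 CPM for 13 immune markers and 8.77 CPM for 9 endothelial markers in the CPA and synta-66 libraries. Most of the fibroblast sum was ACTA2, the smooth muscle actin gene, with 13.7 to 35.6 CPM with CPA and 11.8 to 25.7 CPM with synta-66. At opposite features, where ACTA2 and FAP were the 2 fibroblast markers read, the sum was 48.8 to 50.3 CPM with CPA and 42.0 to 55.4 CPM with synta-66, and neither gene was called. Of these, 5, 5 and 1 had no read in any library, and COL3A1, DCN, CD3E and HLA-DRA were among them. Of the 5 that could be tested by own counts none was called. No immune or endothelial marker was read at an opposite feature, so own counts near 0 do not show that these genes were silent.

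**Figure D5:**
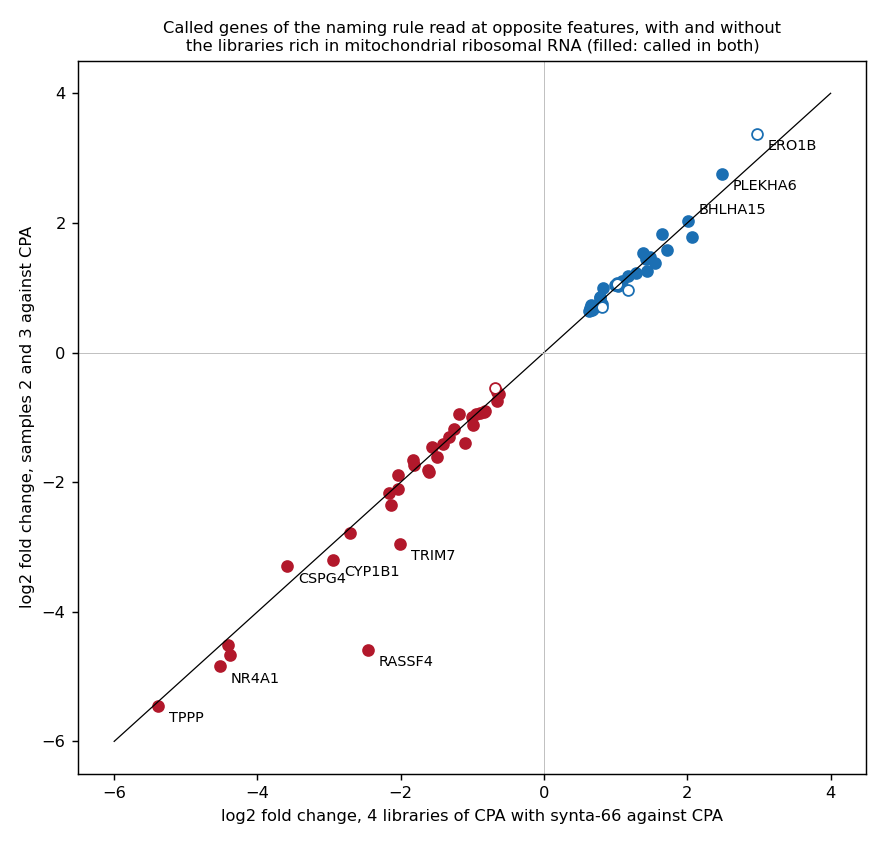
Log2 fold change against CPA for the called genes of the naming rule read at opposite features, with all 4 libraries of CPA with synta-66 (horizontal axis) and with samples 2 and 3 only (vertical axis), with the line of equality. Filled points were called both ways, and no gene changes side. RASSF4 (-2.46 and -4.58) and TRIM7 (-2.004 and -2.95) lie farthest from the line, and ERO1B is among the open points, which were called with all 4 libraries only.

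A change read at the opposite feature was seldom also called by the gene's own count. Of the 281 called genes, 226 had an own count that could be tested, and it was called the same way for 21 and the other way for 4. Of all coding genes tested by own counts 4.48% were called. Own counts could be too small to show a change: with CPA, RGMB averaged 4.93 CPM of its own and 999.7 CPM at its opposite feature. PTHLH, CSPG4, VIM and RASSF4 were among the falls called by both readings, and HYOU1, HSP90B1, CEBPB, PHLDA1, HMMR and NDUFA4L2 among the rises. Called the other way were, among others, LRRC8E (-0.83 at its opposite feature, 1.03 by own count), IFNGR2 (-0.66 and 1.00) and DEPDC1 (0.74 and -1.63). HMMR, a hyaluronan-binding protein of the mitotic spindle, had 45.2, 44.4, 40.1 and 44.03 CPM with CPA and 68.6, 64.6, 78.4 and 64.4 CPM with synta-66 at HMMR-AS1 (0.67, adjusted p = 0.000144), but its own rise was not called without CPA sample 2 (adjusted p = 0.0899), CPA sample 4 (0.0786) or synta-66 sample 3 (0.117). The own count of VIM, which fell by 0.70 on the log2 scale, was not called without synta-66 sample 2 (-0.53, adjusted p = 0.064).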

How the data were processed

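Total RNA of HSC-3 cells was sequenced as 12 libraries in 3 groups of 4. The authors deposited raw read counts per gene, and per the labels' protocols reads were checked with FastQC 0.11.5, trimmed with Trimmomatic (0.32 there, 0.36 in the submitters' processing notes), aligned to GRCh38 with STAR 2.5.2a and counted with HTSeq 0.6.1p1 against Ensembl release 84, taking the library as stranded. No source used here names the kit. The 5 closing HTSeq rows were dropped, which left 60675 gene rows, and 56558 of their IDs matched GENCODE 44. From these counts, features with at least 5 reads in 2 of the 4 libraries of a group were tested with edgeR 4.0.16 (TMM, quasi-likelihood, R 4.3.3) in 1 fit of all 12 libraries, with Benjamini-Hochberg adjustment over 14911 features. The SE is the log2 fold change divided by the square root of F. DESeq2 1.42.0, other scalings and filters, a replicate block and leaving out libraries were alternatives. The number of reads assigned to genes, 2819486 to 5458858 per library, limits precision for low features.

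Genes were named by a rule. Called genes had to reach 5 CPM on average over the 8 libraries, with CPA and CPA with synta-66 not overlapping. Of these it takes the 14 largest rises and falls read at noncoding features and the 4 largest each way read at coding features. It also takes the 4 largest each way among features with no coding exon opposite, up to 4 called members of each of 33 gene lists (averaging 1 CPM or more), and a set of calcium and stress genes whatever their values. Members and lists were chosen with earlier results of these data known. On simulated data with 13728 genes for this comparison, the procedure called 8, 19, 32 and 37 of 50 genes changed 1.5, 2, 4 and 8-fold, with 5 false calls. A few of the named genes and 1 gene list are not reported here.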

Additional observations from a re-analysis of the deposited data

Results flagged for a closer look

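In 282 groups of 4 libraries of the named genes, 18 had a highest or lowest library whose gap to the nearest other, divided by the whole range, was above Dixon's 95% critical value for 4 samples. Chance flags about 1 in 20 groups. CPA sample 2 accounted for 9 of the 18. In that library HMGA2 had 355 CPM, AHNAK2 767 CPM, FAT2 274 CPM and PPP3CC 36.7 CPM, each above the other CPA libraries, as were IL16 (7.91 CPM) and MORF4L2 (10.2 CPM) at their lower levels. The same check gave IL20RB (8.37 CPM), PHLDA1 (949 CPM) and VIM (4659 CPM) as below the other CPA libraries. CPA sample 3 had LIF at 20.3 CPM and NDUFA4L2, read at SHMT2, at 3.48 CPM. With synta-66, sample 2 had VEGFA at 133 CPM, and sample 4 had TESK1 at 57.9 CPM and ZNF550 at 53.5 CPM. In untreated cells, sample 1 had NAV2 at 63.3 CPM, sample 3 had SLC7A11 at 293 CPM and PPP3CC at 20.9 CPM, and sample 4 had PLEKHA6 at 0.586 CPM.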

How the results depend on the processing

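None of the 131 called readings of named genes changed direction under any alternative. Of the 16 not called, 7 did (GAPDH and SARAF by both readings, STIM1 and VEGFA at opposite features and ATF4 by its own count, 0.38 with all libraries and -0.37 without samples 1 and 4). With a test against the 1.5-fold minimum (edgeR's glmTreat) 53 features rose and 104 fell, 19 and 51 genes at opposite features, and 27 and 55 by own counts, and 58 of the 131 called readings were no longer called. With no minimum fold 515 features rose and 545 fell, 267 and 303 genes by own counts, and at opposite features 260 and 259, so the excess of falls there was not seen. When each gene was read at its most abundant noncoding opposite feature, also where a coding one had more reads (1998 genes), 56 rose and 92 fell. Leaving out 1 library at a time gave 244 to 312 rises and 323 to 472 falls over all features, 95 to 111 and 152 to 185 at opposite features, 131 to 174 and 184 to 276 by own counts, and a difference in mitochondrial ribosomal RNA of 15.7 to 32.5 percentage points. The replicate block gave 292 rises and 431 falls over all features, 108 and 173 at opposite features. The samples share only a number: same-numbered libraries correlated by 1.45e-05 to 0.0189, and 0 of 4 correlated best with their own number. Without samples 1 and 4 and the mitochondrial genes, chosen after seeing the data, 234 features rose and 372 fell.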
